A study of Mus musculus with 24 samples.

Results

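Gene expression in the quadriceps of BL10 mice was compared between 2 weeks and 3 weeks of age. BL10 is the control strain of a series that also holds mdx mice, which lack functional dystrophin. The members were chosen by their titles: 3 arrays of BL10 quadriceps at 2 weeks and 3 arrays at 3 weeks, 6 of the 24 arrays in the series. The other 18 arrays are BL10 at 5 days and 6 weeks and mdx at 5 days, 2 weeks, 3 weeks and 6 weeks, with 3 arrays in each of the 8 groups. The labels name no treatment, and give neither the sex of the mice, nor the litter, nor the day on which pups were weaned. They call the arrays biological replicates, so the tests measure the spread between these samples. RNA was taken from whole muscle, in which fewer cells of a type and less RNA per cell cannot be told apart.

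Mouse pups change from milk, which is rich in fat, to solid food, which is rich in carbohydrate, at about this age. In the same period corticosterone in the blood rises, muscle fibres grow by adding protein after the early fusion of myoblasts, and a set of growth genes, many of them imprinted and highly expressed before birth, is shut down in most organs. Glucose that enters a fibre is trapped by hexokinase or stored as glycogen. Its pyruvate enters the citric acid cycle through pyruvate dehydrogenase, and the malate-aspartate shuttle carries the reducing power of glycolysis into mitochondria.

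All values are log2(intensity + 16) after quantile normalization, so the lowest possible value is 4. Differences are 3 weeks minus 2 weeks on that log2 scale, with the standard error of a limma model fitted to all 24 arrays, and the added 16 makes the change of a dim gene smaller. Permuting 3 against 3 arrays exactly, gene by gene, can reach no p under 0.1. The calls draw instead on variance shared by limma across groups and genes, and a gene was called at a Benjamini-Hochberg adjusted p under 0.05. Values in the order replicate 1, replicate 2, replicate 3 are given for each age.

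Dmd, the dystrophin gene, was read first in every array. Its brightest probe set, 1448665_at, read 9.18, 10.03 and 10.08 at 2 weeks and 8.88, 8.02 and 10.13 at 3 weeks. Replicate 2 at 3 weeks lay below the other 5 arrays and inside the range of the arrays labelled mdx at 3 weeks, which read 7.94, 7.64 and 8.25. The library labelled BL10 at 3 weeks, replicate 2, also had the lowest value of the 6 in Dmd probe set 1417307_at, at 7.59, and in Erdr1 probe set 1452406_x_at, at 6.34. Other probe sets did not place it so. In Dmd 1443315_at it read 8.36, above the mdx arrays at 3 weeks, at 7.42, 7.67 and 7.88. In Erdr1 1447790_at it read 7.52, beside 7.55 in replicate 1 at 3 weeks. Dmd 1430320_at lay between 4.09 and 5.40 in the 6 arrays, near the lowest possible value. In 1417307_at replicate 1 of each age was nearly as low, at 7.70 at 2 weeks and 8.03 at 3 weeks, and the other 3 arrays lay between 9.08 and 9.66. Erdr1 probe set 1452406_x_at separated the strains at 5 days, and was chosen for that after its values were seen. In the other 5 arrays that Erdr1 probe set, the one meant below, lay between 8.25 and 9.88, whereas the arrays labelled mdx at 3 weeks read 6.26, 6.66 and 6.25. Across the 15000 genes tested the highest correlation of BL10 3-week replicate 2 with another array was 0.978, with mdx at 2 weeks replicate 2. It correlated almost as well, at 0.976, with BL10 at 2 weeks replicate 3, and at 0.937 and 0.957 with replicates 1 and 3 at 3 weeks, which correlated with each other at 0.951. These correlations do not set the array apart by strain. The array labelled mdx at 2 weeks, replicate 3, read 10.31 in Dmd and 9.28 in Erdr1, on the BL10 side, its description gives 3 weeks where its title gives 2 weeks, and it correlated at 0.975 with BL10 at 3 weeks replicate 3. The fitted Dmd difference was -0.75 ± 0.47 (adjusted p = 0.399, limma), and -0.26 without the doubted 3-week array. The 3 arrays labelled mdx at 6 weeks also read on the BL10 side, at 9.84, 9.99 and 10.04 in Dmd and between 8.21 and 9.28 in Erdr1. They are in neither age group here and stayed in the fit. No array was moved to another group. The doubted 3-week array is the one named above, and both doubted arrays are that one and mdx at 2 weeks replicate 3.

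The 6 arrays read as skeletal muscle, which does not set them apart from the rest of the series. The 20 genes of the skeletal muscle identity list averaged 13.01, 13.09 and 13.36 at 2 weeks and 13.41, 13.32 and 13.42 at 3 weeks, near the top of the intensity scale. Xist was between 4.74 and 5.14 in the 6 arrays, and the Y-linked Eif2s3y read 7.41, 8.87 and 9.37 at 2 weeks and 7.73, 9.62 and 9.43 at 3 weeks. Replicate 1 was the lowest of its age at both ages in Eif2s3y. The same held in Y-linked Uty, at 6.43 and 6.86, and in Kdm5d, at 6.12 and 6.80. What lowered these values was not tested. Control probe sets at the 3′ and 5′ ends of Gapdh differed by 0.13, -0.08 and -0.17 at 2 weeks and -0.15, -0.22 and -0.21 at 3 weeks. Those of actin differed by 0.11, -0.14 and -0.10, then -0.22, -0.23 and -0.13. Replicate 1 at 2 weeks was the highest of the 6 in both. The deposited median intensity of the 6 arrays ran from 49.2 to 52.2. Between 3.61% and 4.36% of their values lay below 0.

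Of 15000 genes tested, 114 were called (0.76%), 59 higher at 3 weeks (0.393%) and 55 lower (0.367%). A difference of at least 1 on the log2 scale was found in 60 of them (0.4%), 31 higher and 29 lower. At an unadjusted p under 0.05 there were 2865 genes (19.1%). In 110 of the 114 called genes the 3 arrays of one age all lay beyond the 3 of the other, against 2170 of all genes tested (14.5%). The calls were made on these same arrays, so the count of 110 adds no support to them. The values as deposited gave 20 calls and median centring gave 18, and all 114 genes kept their sign under both. Calls kept under both included Hk2, Got1, Ckmt2, Isca1, Ghitm, Myot, Tmem182, Timp4, Zdhhc14, Atp6v1b2, Smarcc1, Prg3 and Dhcr7. Phka1, Idh3a, Mdh2, Pdha1, Sqstm1, Nqo1, Lmnb2, Pola1, Snrpe, Gap43 and Krt10 were among those called under neither. Their adjusted p on the deposited scaling lay between 0.0524 and 0.0635 (limma). Of the called genes 51.8% were higher, against 60% for the deposited scaling and 66.7% after median centring.

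The number of calls depended on single arrays. Without the doubted 3-week array, the fit called 634 of 14985 genes (4.23%): 274 rose (1.83%), 360 fell (2.4%), and 112 of the 114 were among them. The 2 that were lost were Mynn and Polr2i. Leaving out mdx at 2 weeks replicate 3 as well gave 988 calls (6.6%). Without replicate 3 at 2 weeks there were 1526 calls. Without any single one of the other 4 arrays, 2-week replicates 1 and 2 and 3-week replicates 1 and 3, limma called 0, with at least 1817 genes at an unadjusted p under 0.05 in each fit. Replicate 3 was the 2-week array nearest to the 3-week arrays in 48 of the 59 genes called higher and 47 of the 55 called lower. The doubted array was the 3-week array nearest to the 2-week arrays in 43 and 38 of them.

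**Figure D1:**
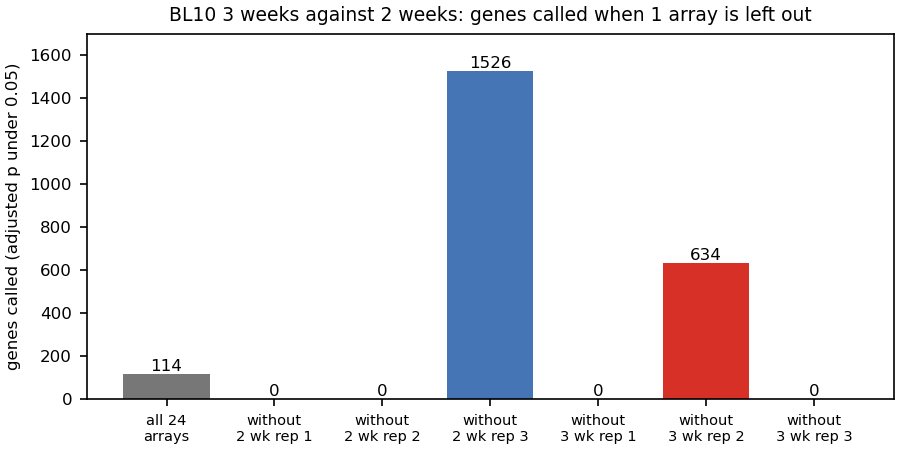
Bars give the number of genes called between BL10 at 3 weeks and 2 weeks at an adjusted p under 0.05 (limma), with all 24 arrays (grey) and without each of the 6 arrays compared (blue, 2 weeks; red, 3 weeks). The count is 114 with all arrays, 634 without 3-week replicate 2, 1526 without 2-week replicate 3, and 0 without any of the other 4.

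Several genes of glucose and glycogen use and of the citric acid cycle were higher at 3 weeks. Of the 18 tested genes of the glycolysis and glycogen list, 2 rose and 0 fell, 17 had a positive difference, and the median was 0.50 against 0.00 over all genes. Of all 15000 genes 0.393% were called higher and 7504 had a positive difference. Hk2, the hexokinase of insulin-responsive muscle, read 10.05, 9.60 and 10.46 at 2 weeks and 11.18, 10.78 and 11.35 at 3 weeks. The rise was 1.06 ± 0.21 (adjusted p = 0.0355, limma). Hk2 was also the 1 called gene of 20 in the glucose uptake and insulin signalling list, which had 6 negative differences and a median of 0.15. Phka1, the regulatory alpha subunit of muscle phosphorylase kinase, which switches on glycogen breakdown, read 9.70, 10.30 and 10.99, then 11.85, 11.48 and 11.92. It rose by 1.42 ± 0.28 (adjusted p = 0.0387, limma). The arrays of the 2 ages did not overlap in either gene, and 2-week replicate 3 lay nearest to the older arrays in both. The rises were 1.22 in Hk2 and 1.55 in Phka1 without the doubted array, and both passed. On the deposited scaling Hk2 passed (adjusted p = 0.0429, limma) and Phka1 did not (adjusted p = 0.0524).

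Other steps of glycolysis and glycogen use did not pass the test. Pfkm, the muscle phosphofructokinase, read 12.07, 12.07 and 13.02 at 2 weeks and 13.14, 13.06 and 12.96 at 3 weeks, a difference of 0.67 ± 0.17 (adjusted p = 0.0623, limma) with overlapping arrays. Pygm, the muscle glycogen phosphorylase, differed by 0.46 ± 0.16, and Pgm1, which interconverts glucose phosphates, by 0.51 ± 0.16. Among enzymes near the top of the scale the differences were small: 0.20 in Ldha, 0.16 in Eno3 and 0.04 in Pgam2. The mean of the list was 11.46, 11.60 and 12.05 at 2 weeks and 12.28, 12.20 and 12.22 at 3 weeks, so that 2-week replicate 3 stood between its own group and the older one. It had been 11.69, 11.61 and 11.59 at 5 days, and was 12.35, 12.41 and 12.46 at 6 weeks. Without the doubted array 2 genes of the list were again called and the median was 0.55. Its median was 0.69 with values as deposited.

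In the citric acid cycle list, which includes pyruvate dehydrogenase, 3 of 18 tested genes rose, 0 fell, 16 had a positive difference, and the median was 0.26. Over all genes 0.393% rose, and 7504 of 15000 had a positive difference. The skeletal muscle identity list stood near it, with 15 of 20 positive and a median of 0.22. Idh3a, a subunit of the NAD-dependent isocitrate dehydrogenase, read 11.80, 11.92 and 12.33 at 2 weeks and 12.59, 12.53 and 12.89 at 3 weeks, and rose by 0.65 ± 0.13 (adjusted p = 0.0355, limma). Pdha1, a subunit of the pyruvate dehydrogenase complex, read 11.59, 11.75 and 12.17, then 12.17, 12.37 and 12.54, and rose by 0.52 ± 0.12 (adjusted p = 0.046). Mdh2, the mitochondrial malate dehydrogenase of the cycle and of the malate-aspartate shuttle, read 12.41, 12.45 and 12.92, then 13.18, 12.90 and 13.17, and rose by 0.49 ± 0.11 (adjusted p = 0.0441). The ages met or overlapped in the last 2 genes through 2-week replicate 3. On the deposited scaling Idh3a, Pdha1 and Mdh2 did not pass, with adjusted p of 0.0524, 0.0623 and 0.0524 (limma). These 3 genes rose by 0.73, 0.52 and 0.58 without the doubted array. In that fit Pdhb, the beta subunit of pyruvate dehydrogenase, was called as well (0.33, adjusted p = 0.0481, limma). The median of the citric acid cycle list was then 0.27. Got1, the cytosolic aspartate aminotransferase that works in the same shuttle, lies outside the list. It read 10.45, 10.40 and 11.47 at 2 weeks and 11.99, 11.85 and 12.04 at 3 weeks, and rose by 1.19 ± 0.20 (adjusted p = 0.0333, limma), or by 1.24 without the doubted array.

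The respiratory chain moved less. Of its 31 tested genes 0 were called, 23 had a positive difference and the median was 0.12. Its lowest adjusted p was that of Uqcrfs1, the Rieske iron-sulfur protein of complex III, at 12.42, 12.42 and 12.56, then 12.83, 12.73 and 12.85. That difference, 0.34 ± 0.08, had an adjusted p of 0.051 (limma), and 0.0296 without the doubted array. The fatty acid uptake and oxidation list had 0 of 26 called and a median of 0.12, and the 4 tested genes of ketone body use had 0 called and a median of 0.57. The 3 medians were 0.17, 0.11 and 0.73 without the doubted array. With values as deposited the medians of the respiratory chain and the citric acid cycle were 0.29 and 0.42, beside 0.34 in the skeletal muscle identity list.

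Further called genes of mitochondria and the contractile apparatus were read outside those lists, and were picked after their values were seen, except Myot. Ckmt2, the mitochondrial creatine kinase of striated muscle, read 12.38, 12.30 and 12.54 at 2 weeks and 13.09, 12.71 and 13.23 at 3 weeks, a rise of 0.60 ± 0.12. Isca1, an iron-sulfur cluster assembly protein, rose by 0.72 ± 0.12, Ghitm, an inner membrane protein, by 0.70 ± 0.13, and Gfm2, a mitochondrial translation factor, by 1.22 ± 0.26. The amino acid enzymes Ivd, which acts in leucine breakdown, and Oat, the ornithine aminotransferase, rose by 1.28 ± 0.28 and 0.91 ± 0.21. Myot, the Z-disc protein myotilin, was the 1 called gene of the 20 in the muscle identity list, at 12.42, 12.55 and 12.89, then 13.16, 13.12 and 13.44. Tmem182, a membrane protein of muscle, rose by 0.57 ± 0.11. The adjusted p of these genes lay between 0.0333 and 0.043 (limma), and all passed without the doubted array.

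Because several of these genes rose together, the 250 bases before their transcription starts were read from RefSeq (GRCm38.p6) for known motifs. The windows of 3 of them hold the core motif of estrogen-related receptors, nuclear receptors of oxidative metabolism, and are printed 5′ to 3′ on the gene's strand with the motif in capitals. Got1 is read from chr19:43524606-43524855, minus strand, Isca1 from chr13:59769790-59770039, minus strand, and Tmem182 from chr1:40805351-40805600, plus strand. The motif starts 245, 135 and 115 bases before the start in that order.
Got1: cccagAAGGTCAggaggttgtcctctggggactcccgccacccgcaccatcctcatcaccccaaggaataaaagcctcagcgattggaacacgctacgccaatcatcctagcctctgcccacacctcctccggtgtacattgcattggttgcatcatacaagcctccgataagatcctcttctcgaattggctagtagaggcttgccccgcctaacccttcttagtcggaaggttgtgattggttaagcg
Isca1: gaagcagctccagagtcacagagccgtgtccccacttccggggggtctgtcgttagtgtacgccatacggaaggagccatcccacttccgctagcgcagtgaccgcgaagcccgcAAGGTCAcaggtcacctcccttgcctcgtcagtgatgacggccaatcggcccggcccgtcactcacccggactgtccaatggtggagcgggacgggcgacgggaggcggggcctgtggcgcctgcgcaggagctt
Tmem182: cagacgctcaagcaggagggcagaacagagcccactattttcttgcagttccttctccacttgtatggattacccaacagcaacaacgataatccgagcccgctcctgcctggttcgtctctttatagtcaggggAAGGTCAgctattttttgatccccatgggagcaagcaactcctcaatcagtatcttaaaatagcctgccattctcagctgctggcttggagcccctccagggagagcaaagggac

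That motif, AAGGTCA on either strand, was in 5 of 59 windows (8.47%) of 48 genes called higher, those of Aktip, Got1, Isca1, Smco1 and Tmem182. It was in 3.45% of 58 windows of 46 genes called lower, those of Dhcr7 and Sct, in 3.12% of windows of all genes tested and in 4.08% of all 32851 windows. The NRF1 motif (GCGCA, any base, GCGC) was in 15.3%, 8.62%, 6.69% and 3.74% in the same order. Its genes called higher were Dcaf11, Gfm2, Isca1, Phospho2, Plekhb2, Rab12, Sypl and Ube2g1. Those called lower were Chmp2a, Dhcr7, Fip1l1, Pnmal2 and Pola1. The windows printed for Isca1 above and Pola1 below hold this motif too, not in capitals. The shares of the MEF2 motif (CTA, any 4 bases, TAG) were 5.08%, 1.72%, 2.91% and 3.2%, of the E-box CACGTG 1.69%, 6.9%, 7.76% and 6.02%, and of the CRE TGACGTCA 5.08%, 3.45%, 2.17% and 1.55%. The motifs were searched on both strands, a gene can have several windows that overlap, and a match is a string of letters, not a bound site.

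The largest rise among the called genes was in Timp4, an inhibitor of matrix metalloproteinases. It read 7.71, 6.88 and 6.81 at 2 weeks and 10.27, 8.84 and 10.05 at 3 weeks, a rise of 2.59 ± 0.47 (adjusted p = 0.0333, limma) and of 3.03 without the doubted array. All 3 older arrays lay above the younger ones, and the doubted array was the lowest of them. Timp4 was the 1 called member of 20 in the matrix remodelling list, whose median was 0.15. Lrrc2, a leucine-rich repeat protein, followed with 2.03 ± 0.45, and Zdhhc14, a protein palmitoyltransferase, with 1.90 ± 0.36. Zdhhc14 read 6.48, 6.68 and 8.32, then 9.62, 8.85 and 8.70, so that most of the spread at 2 weeks came from replicate 3. Smco1, a membrane protein, rose by 1.74 ± 0.38, Adh1, an alcohol dehydrogenase, by 1.40 ± 0.31, and Car14, a carbonic anhydrase of the membrane, by 1.38 ± 0.29. These 5 genes, in the order given, rose by 1.82, 2.00, 1.87, 1.62 and 1.60 without the doubted array, and all passed.

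Several more genes were called higher. Sqstm1, the autophagy receptor p62, read 10.15, 10.01 and 11.07 at 2 weeks and 11.86, 11.59 and 11.53 at 3 weeks, and rose by 1.25 ± 0.28 (adjusted p = 0.043, limma). It was the 1 called gene of the 20 in the atrophy and autophagy list. In that list 19 genes had a positive difference, 11 did not overlap between the ages (7.19% of all genes did so in this direction), and the median was 0.57, or 0.47 without the doubted array. Bnip3, a mitophagy receptor, read 10.26, 10.37 and 10.95, then 11.52, 11.55 and 11.48, with an adjusted p of 0.12. Fbxo32 and Trim63, muscle ubiquitin ligases, differed by 1.21 ± 0.66 and 0.61 ± 0.48. Nqo1, a quinone reductase, read 5.52, 5.68 and 5.63, then 7.65, 6.14 and 6.85, and rose by 1.27 ± 0.30 (adjusted p = 0.046). It was the 1 called gene of 16 in the oxidative stress list, which had 6 negative differences and a median of 0.17. Aqp1, the water channel of capillary endothelium, rose by 0.93 ± 0.21 and was the 1 called gene of 16 in the endothelial list, whose median was -0.14. Usp2 and Ube2g1, a deubiquitinase and a ubiquitin-conjugating enzyme, and Atp6v1b2, a subunit of the lysosomal proton pump, rose by 1.15 ± 0.25, 0.93 ± 0.20 and 0.93 ± 0.18. These last 3 were named after their values were seen. All the genes called here passed without the doubted array too, Sqstm1 with 1.28, Nqo1 with 1.64 and Aqp1 with 1.09.

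**Figure D2:**
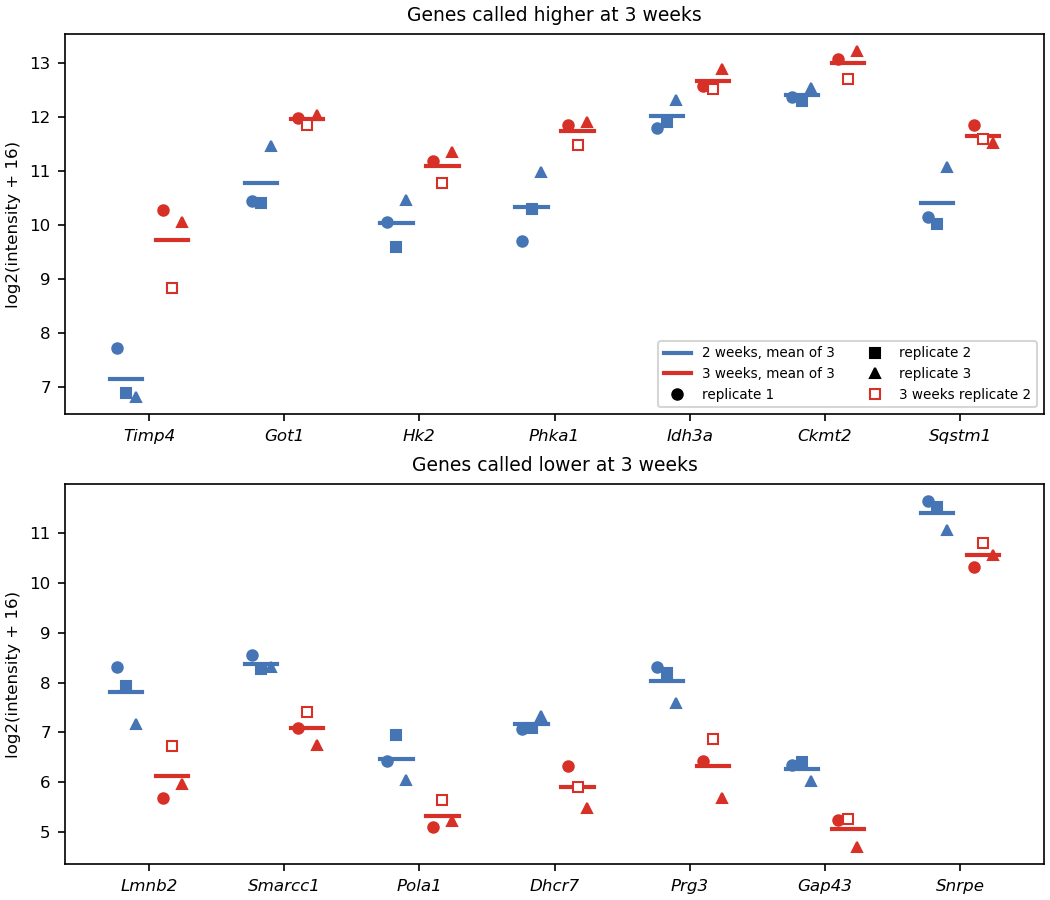
Each point is 1 BL10 array, with log2(intensity + 16) on the vertical axis, for 7 genes called higher (upper panel) and 7 called lower (lower panel) at 3 weeks. Blue is 2 weeks and red is 3 weeks, the line is the mean of 3 arrays, the shape gives the replicate number, and the open square is the doubted array. The ages do not overlap in any of the 14 genes, and 2-week replicate 3 is often the blue point nearest to the red ones.

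The genes called lower included Lmnb2, Smarcc1 and Pola1. Lmnb2, the nuclear lamina protein lamin B2, read 8.32, 7.94 and 7.16 at 2 weeks and 5.69, 6.73 and 5.97 at 3 weeks. Lmnb2 fell by 1.68 on the log2 scale (SE 0.35, adjusted p = 0.0409, limma). Smarcc1, a core subunit of the SWI/SNF chromatin remodellers, read 8.56, 8.28 and 8.31, then 7.09, 7.42 and 6.75, a difference of -1.30 ± 0.24 (adjusted p = 0.0333). Pola1, the catalytic subunit of DNA polymerase alpha, read 6.43, 6.94 and 6.04, then 5.09, 5.64 and 5.21, a difference of -1.16 ± 0.24 (adjusted p = 0.0412). Chd3, a chromatin remodeller, differed by -1.12 ± 0.25, and Rcc1, the exchange factor of the GTPase Ran, by -0.77 ± 0.18. Lmnb2 and Smarcc1 are among the 12 largest falls, and the other 3 genes were named after their values were seen. All 5 passed without the doubted array, with differences of -1.98, -1.46, -1.32, -1.39 and -0.94 in that order. Called genes for nuclear proteins also lay on the other side: Kat8, a histone acetyltransferase, rose by 1.0, and Rad51d, a DNA repair protein, by 0.87.

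The window before the start of Pola1 holds a match to the E2F motif TTTNGCGC, the site of the factors that drive genes of DNA replication. It is printed 5′ to 3′ from chrX:93632156-93632405 of GRCm38.p6, minus strand, with the match, on the opposite strand and 138 bases before the start, in capitals.
Pola1: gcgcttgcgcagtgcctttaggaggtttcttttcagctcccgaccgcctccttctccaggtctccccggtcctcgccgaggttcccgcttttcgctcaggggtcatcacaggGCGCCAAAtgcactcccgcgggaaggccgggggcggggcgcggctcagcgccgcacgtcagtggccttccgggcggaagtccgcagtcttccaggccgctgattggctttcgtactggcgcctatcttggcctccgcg
The E2F motif was in 2 of the 58 windows of genes called lower (3.45%), those of Ints7 and Pola1, in 0 of the 59 windows of genes called higher, in 1.74% of windows of all genes tested and in 1.13% of all windows.

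The following genes for messenger RNA and the ribosome were grouped after their values were seen, without a list for messenger RNA factors. Snrpe and Snrpg, Sm proteins of the spliceosome, differed by -0.85 ± 0.16 and -1.0 ± 0.22. Snrpe read 11.65, 11.53 and 11.06, then 10.32, 10.81 and 10.57. Son, a splicing cofactor, Fip1l1, a polyadenylation factor, Ints7, a subunit of Integrator, and Polr2i, a subunit of RNA polymerase II, differed by -0.79, -0.88, -0.99 and -0.97. Snrpe, Snrpg, Son, Fip1l1 and Ints7 passed without the doubted array and Polr2i did not (adjusted p = 0.0521, limma). Called genes of the same kind also rose: Gtf2e1, a subunit of the initiation factor TFIIE, by 0.88, and Lsg1, a GTPase of ribosome maturation, by 0.94. Of 42 tested genes for ribosomal proteins 8 fell, 0 rose, 38 had a negative difference, and the median was -0.31. Rpl37a, with the lowest adjusted p of the 8, went from 13.42, 13.48 and 12.99 to 12.63, 12.86 and 12.69, and fell by 0.57 on the log2 scale (SE 0.11, adjusted p = 0.0341, limma). The mean of the 42 genes was 11.70, 11.55 and 11.37 at 2 weeks and 11.20, 11.30 and 11.18 at 3 weeks. This group depended on the scaling: on the deposited scaling the median was -0.15 and after median centring -0.12, 31 of 42 were negative in each, and limma called 0. Without the doubted array 14 of 42 fell and 0 rose. Of all genes 2.4% fell in that fit and 0.367% with all arrays. Ribosomal protein genes have many near-identical copies, and several of these probe sets can bind more than 1 transcript. The list of ribosome biogenesis and translation had 0 of 20 called and a median of 0.01.

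Single called genes pointed to other cell types or pathways. Prg3, an eosinophil granule protein, read 8.32, 8.19 and 7.59 at 2 weeks and 6.43, 6.86 and 5.68 at 3 weeks, a difference of -1.71 ± 0.28 (adjusted p = 0.0333, limma). The 8 tested markers of mast cells and eosinophils had 0 calls, 7 negative differences, 3 genes lower without overlap (7.28% of all genes were) and a median of -0.62, and their mean was 6.28, 6.44 and 5.84, then 5.72, 5.63 and 5.34. Among them Cma1, a mast cell chymase, read 8.10, 8.17 and 6.86, then 6.86, 6.67 and 6.13 (adjusted p = 0.068). The part of these cells in the Prg3 result was not tested. Dhcr7, the last enzyme of cholesterol synthesis, read 7.06, 7.08 and 7.34, then 6.32, 5.90 and 5.48, and fell by 1.26 on the log2 scale (SE 0.24, adjusted p = 0.0341). It was the 1 called gene of 19 in the cholesterol synthesis list, whose median was -0.11. Acta2, the actin of smooth muscle, read 12.56, 12.62 and 12.61, then 12.05, 12.11 and 12.15, and fell by 0.50 (SE 0.11, adjusted p = 0.043). The Acta2 call ended with another scaling: the difference was -0.34 on the deposited one (adjusted p = 0.172, limma) and -0.31 after median centring (adjusted p = 0.219). It was the 1 called gene of 14 in the pericyte and smooth muscle list. Gap43, a protein of growing axons, differed by -1.19 ± 0.25, and Krt10, a keratin of skin, by -1.01 ± 0.22. On the deposited scaling both had an adjusted p of 0.0524 (limma). Krt10 was the 1 called gene of 9 in the keratinocyte and skin list, which had 4 positive differences and a median of -0.03. All 5 genes passed without the doubted array, with -1.98 in Prg3, -1.26 in Dhcr7, -0.50 in Acta2, -1.28 in Gap43 and -1.10 in Krt10.

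The growth genes that are shut down after birth were lower at 3 weeks in replicates 1 and 3, whereas the doubted array stayed at the 2-week level. With all arrays 0 of the 19 tested genes of the IGF and postnatal growth list were called, 18 had a negative difference and the median was -0.94. Without the doubted array 11 of 19 fell, 0 rose and the median was -1.31, where 2.4% of all genes fell. The list mean was 10.35, 10.68 and 10.48 at 2 weeks and 9.16, 10.41 and 9.47 at 3 weeks. Dlk1, an imprinted Notch-like membrane protein of immature muscle and fat, read 10.70, 11.01 and 10.37, then 7.70, 10.60 and 7.07. Its difference was -2.23 ± 0.71 (adjusted p = 0.103, limma) and without the doubted array -3.31 ± 0.62 (adjusted p = 0.011).

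Igf2, the fetal insulin-like growth factor, read 13.15, 13.46 and 13.10 at 2 weeks and 11.26, 13.37 and 11.39 at 3 weeks. Its difference was -1.23 ± 0.45 (adjusted p = 0.143, limma), and -1.91 ± 0.38 without the doubted array (adjusted p = 0.0163). The imprinted genes Meg3, a long noncoding RNA, Mest and Peg3, and Plagl1, a zinc finger regulator of the imprinted network, were likewise lowest in replicates 1 and 3 at 3 weeks. Without the doubted array their differences were -2.53, -2.21, -1.46 and -1.76, with adjusted p from 0.0105 to 0.04, and with all arrays from 0.206 to 0.288. Cdkn1c, an imprinted inhibitor of cyclin-dependent kinases, read 11.74, 11.92 and 12.33, then 10.53, 12.01 and 10.21. In these 7 genes the doubted array lay within or above the range of the 2-week arrays. The array labelled mdx at 2 weeks replicate 3 read low in the same genes, for example 8.19 in Mest, where the other 2 mdx arrays of that label read 10.32 and 10.28.

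By contrast, Ndn and Socs2 were lower in all 3 older arrays. Ndn, the imprinted protein necdin, read 11.63, 11.44 and 11.03 at 2 weeks and 10.31, 10.71 and 9.80 at 3 weeks (difference -1.09 ± 0.29, adjusted p = 0.064, limma). Socs2, the feedback inhibitor of growth hormone signalling, read 8.34, 8.75 and 7.79, then 6.79, 7.35 and 6.92 (difference -1.27 ± 0.32, adjusted p = 0.0593). Neither passed with all arrays, and both passed without the doubted array, at 0.0266 and 0.0331. Igf1, the growth factor of postnatal muscle, differed by -0.48 ± 0.27, with overlapping ages, and did not pass in either fit.

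**Figure D3:**
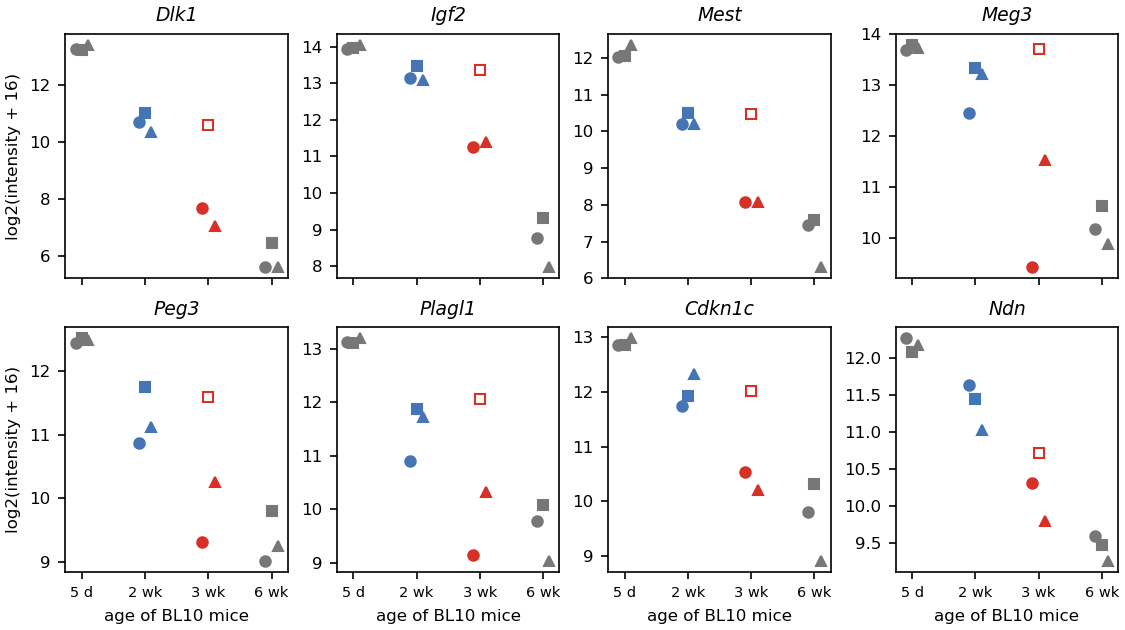
Each point is 1 BL10 array, with log2(intensity + 16) on the vertical axis and age on the horizontal axis, for 8 genes of the growth list. Blue is 2 weeks, red 3 weeks and grey the other ages, the shape gives the replicate number, and the open square is the doubted array. Dlk1 falls from above 13 at 5 days to between 5.61 and 6.45 at 6 weeks, and in 7 of the 8 genes the open square stands at the height of the blue points, Ndn being the exception.

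Genes of the cell cycle, of immature fibres and of myoblast fusion showed the same division of the older arrays. In the cell cycle list 0 of 31 genes were called with all arrays, 27 had a negative difference and the median was -0.67. Without the doubted array 6 fell, 0 rose and the median was -0.94. In that fit 2.4% of all genes fell, against 0.367% with all arrays. The list mean was 7.49, 7.60 and 7.10 at 2 weeks and 6.38, 7.24 and 6.24 at 3 weeks, beside 6.22, 6.34 and 6.19 at 6 weeks. Ccnd1, cyclin D1, was lower in all 3 older arrays, at 9.96, 9.90 and 9.42, then 7.99, 9.07 and 8.08, with an adjusted p of 0.0788 (limma) and 0.0295 without the doubted array. Mki67, the proliferation marker Ki-67, read 8.25, 9.30 and 8.18, then 5.90, 8.66 and 6.02. Top2a, the topoisomerase of dividing cells, Cdk1, the mitotic kinase, Mcm6, a helicase subunit of replication, and Prc1, a cytokinesis protein, also passed without the doubted array, with differences of -2.52, -2.45, -1.28 and -1.67.

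In the developmental muscle list 0 of 14 genes were called, and 4 fell without the doubted array: Dlk1, Igf2, Tnnt2 and Myh8. Of all genes 2.4% fell in that fit. Dlk1 and Igf2 are also in the growth list. Myh8, the perinatal myosin heavy chain, read 11.54, 12.17 and 11.05 at 2 weeks and 9.20, 11.92 and 9.32 at 3 weeks. Tnnt2, the cardiac and fetal troponin T, read 8.69, 9.13 and 8.81, then 6.32, 8.63 and 6.73. Of the 19 myogenic regulators and fusion genes 0 were called with all arrays and 4 fell without the doubted array, where 2.4% of all genes fell. Mymk, the fusion protein myomaker, read 8.64, 8.28 and 8.91, then 6.45, 7.85 and 5.11, a difference of -2.14 ± 0.57 (adjusted p = 0.0672, limma) and of -2.83 without the doubted array (adjusted p = 0.0152). Mymx, the fusion peptide myomixer, and Myog, the differentiation factor myogenin, did not overlap between the ages either, with -1.79 ± 0.55 and -1.20 ± 0.38. Pax7, which marks satellite cells, differed by -0.88 ± 0.31. Myod1, which commits cells to muscle, stayed between 8.49 and 9.12 in the 6 arrays, a difference of -0.15 ± 0.21.

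The adult fast fibre list had 0 of 17 called and a median of 0.22, and the fast myosins Myh4, Myh1 and Myh2 differed by -0.05, 0.25 and 0.25. The slow fibre list had 0 of 12 called and a median of -0.06, which was -0.61 without the doubted array, with 0 called again. Its mean was 10.88, 10.13 and 10.37 at 2 weeks and 10.21, 11.30 and 9.90 at 3 weeks, the doubted array being the highest of the 6. Myh7, the slow myosin, read 11.29, 9.84 and 10.29, then 9.58, 11.69 and 8.42, a difference of -0.57 ± 1.20, or -1.47 without the doubted array.

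Of the extracellular matrix list 0 of 28 genes were called and 22 had a negative difference, with a median of -0.22. Without the doubted array Lamb1, a laminin chain, Col15a1 and Col4a1, collagens of basement membranes, and Postn, the matrix protein periostin, fell, by 0.99, 1.41, 0.80 and 1.33. Of all genes 2.4% fell in that fit. Col15a1 had no overlap with all arrays, at 10.61, 10.70 and 10.36, then 9.37, 10.01 and 8.92. Nos1, the neuronal nitric oxide synthase that is bound to the dystrophin complex, read 6.04, 6.19 and 6.40, then 7.35, 6.85 and 7.30. It did not pass with all arrays (adjusted p = 0.0742, limma), rose by 1.11 without the doubted array (adjusted p = 0.0391), and was then the 1 called gene of 14 in the dystrophin complex list.

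Genes that glucocorticoids raise averaged higher in all 3 older arrays, but 0 of 20 passed the test. The list had 18 positive differences, 11 without overlap between the ages (7.19% of all genes in this direction) and a median of 0.60. The median was 0.53 without the doubted array, with 0 calls again. The list mean was 8.92, 9.01 and 8.85 at 2 weeks and 9.66, 9.92 and 9.43 at 3 weeks. At 5 days it had been 8.61, 8.56 and 8.49, and by 6 weeks it was 10.11, 10.04 and 10.00. Fkbp5, the co-chaperone of the glucocorticoid receptor, read 5.51, 6.07 and 6.13 at 2 weeks and 8.40, 7.19 and 8.65 at 3 weeks, a difference of 2.18 ± 0.72 (adjusted p = 0.114, limma). Klf15, a metabolic transcription factor, read 7.09, 7.30 and 7.61, then 9.35, 8.47 and 8.91, and Zbtb16, a zinc finger factor, 9.73, 10.18 and 9.74, then 11.06, 10.61 and 11.29. Their differences were 1.57 ± 0.61 and 1.10 ± 0.40. Tsc22d3, also called Gilz, differed by 1.11 ± 0.42, and Per1, which the clock also drives, by 0.30 ± 0.49. Fbxo32, Trim63, Foxo1, Ddit4, Klf15, Mt1 and Mt2 are in this list and in the atrophy list, so the results of these lists are not independent. The circadian clock list had 0 of 17 called and a median of 0.23.

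**Figure D4:**
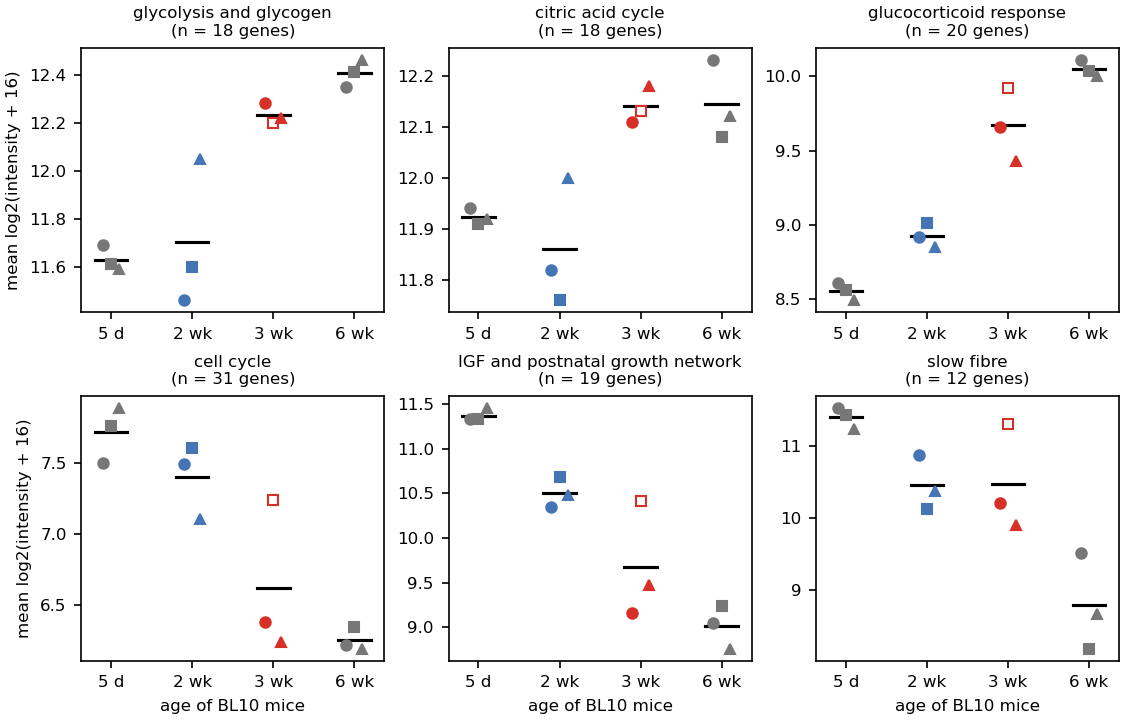
Each point is the mean log2(intensity + 16) of a gene list in 1 BL10 array, by age on the horizontal axis, and the line is the mean of 3 arrays; vertical axes differ between panels and do not start at 0. Blue is 2 weeks, red 3 weeks and grey the other ages, the shape gives the replicate number, and the open square is the doubted array. The glucocorticoid list is higher in all 3 arrays at 3 weeks, at 9.43 to 9.92 against 8.85 to 9.01, whereas in the cell cycle, growth and slow fibre panels the open square stands above the other 2 arrays of its age.

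Levels of markers from tissue around the muscle varied between arrays of the same age. The mean of the 9 brown adipocyte genes was 9.34, 7.97 and 7.74 at 2 weeks and 8.52, 7.04 and 7.18 at 3 weeks, and its defining gene Ucp1 read 12.54, 10.29 and 10.59, then 11.78, 7.27 and 8.76. The mean of the 13 adipocyte genes was 9.37, 9.10 and 8.52, then 9.27, 8.13 and 8.38, with Adipoq, the adipocyte hormone adiponectin, at 11.87, 11.65 and 10.18, then 11.59, 8.90 and 9.68. Replicate 1 was the highest of its age in both lists at both ages. The 11 neutrophil genes averaged 7.35, 7.41 and 5.74, then 6.07, 7.68 and 5.11, and the 10 tendon genes 8.20, 8.26 and 8.74, then 9.59, 7.71 and 8.50. The 24 macrophage genes averaged 7.14, 7.26 and 6.78, then 7.2, 7.17 and 6.76, with 0 called and a median difference of 0.04. None of these lists had a called gene, and their part in the results above was not tested.

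The neighbouring ages share arrays with this comparison, so their values are set beside it and not tested against it. Between 5 days and 2 weeks 4 of the 114 genes were called in the same direction, and between 3 weeks and 6 weeks 6 were. Phka1 rose by 1.08 from 5 days to 2 weeks, before its rise of 1.42, and Nqo1 by 1.19 from 3 weeks to 6 weeks, after its rise of 1.27. Got1 differed by -0.09 before and by -0.04 after, and Timp4 by 0.78 before and -0.17 after. The growth list had medians of -0.74 from 5 days to 2 weeks, -0.94 from 2 weeks to 3 weeks and -0.83 from 3 weeks to 6 weeks.

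In mdx mice the same ages gave 0 calls (limma), with 1248 genes at an unadjusted p under 0.05 (8.32%). Of the 59 genes called higher in BL10 15 had a positive mdx difference, and of the 55 called lower 23 had a negative one. Got1 differed by -0.37, Hk2 by 0.23, Phka1 by 0.02 and Timp4 by -0.51 in mdx. The mdx medians were -0.02 in the glycolysis list, 0.43 in the glucocorticoid list, 0.29 in the cell cycle list and -0.05 in the growth list. A test of the difference between the strains' changes called 20 genes (0.133%), and 0 without both doubted arrays, where 2326 genes had an unadjusted p under 0.05 (15.5%). The mdx comparison holds the array labelled mdx at 2 weeks whose Dmd value is on the BL10 side and whose description names the older age. Replicate 1 of mdx read almost alike at both ages in several list means. It read 8.50 at 2 weeks and 8.45 at 3 weeks in the bone and cartilage list, and 8.83 and 8.90 in the neutrophil list. In the macrophage list it read 7.82 and 7.80, where mdx replicates 2 and 3 at 3 weeks read 9.06 and 9.30. The part of these arrays in the mdx results was not tested.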

How the data were processed

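Total RNA of quadriceps, extracted with Trizol, was hybridised as biotin-labelled cRNA to Affymetrix arrays, per the labels' protocols. Each deposited value is a linear intensity of a probe set, computed by the authors with PLIER, per the submitters' processing notes; its version and settings are not given in the sources used here. Of 45037 probe sets without controls, 34945 carried 1 gene symbol in the platform annotation, 932 several and 9160 none. After quantile normalization, negative values became 0, and log2(intensity + 16) was used. The brightest probe set stood for each of 18193 symbols, and 15000 above the 40th percentile of the array on at least 3 arrays were tested. Limma 3.58.1 (R 4.3.3) was fitted with 8 group means to 24 arrays (16 residual and 5.15 prior degrees of freedom, intensity trend), two-sided, with Benjamini-Hochberg adjustment; the median standard error of a difference was 0.225, which the number of arrays limits. The fit was tested on simulated data.

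Members, 45 gene lists and the naming rule were chosen with earlier results of these data known. The rule takes Dmd, the 12 largest rises and 12 largest falls among called genes without overlap, and per list up to 5 called genes or, with none called, the 2 of lowest p; others named were chosen after their values were seen, including list members that passed without 1 array. Not all are printed. Alternatives were other scalings, added constants, filters, probe set rules, model settings, a replicate block and leaving out arrays. Figures were drawn with matplotlib 3.10.9.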

Additional observations from a re-analysis of the deposited data

Results flagged for a closer look

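The change from 2 weeks to 3 weeks differed between mdx and BL10 in 20 genes, by a limma test of that difference (adjusted p = 0.0498 for each). Values are mdx change minus BL10 change on the log2 scale. It was positive in 4 genes: Prg3, the eosinophil granule protein, at 2.19, Lst1, a protein of leukocytes, at 2.13, Eftud2, a GTPase of the spliceosome, at 1.31, and Txn1, thioredoxin, at 1.09. Among the 16 negative ones were the cytosolic enzyme Got1 at -1.55 and 3 genes for proteins of mitochondria, Gfm2 at -1.79, Tufm, the mitochondrial elongation factor, at -1.35 and Ghitm at -0.94. The largest negative values were those of Krtap5-1, a keratin-associated protein, at -3.17, Cenpb, a centromere protein, at -2.97, Nutm1 at -2.71, Zdhhc14 at -2.71 and Mob2 at -2.21. The chemokine genes Ccl28 and Cx3cl1 stood at -2.12 and -1.86, the glutamine transporter Slc38a3 at -1.92, Lrriq4 at -1.69, the GTPase Rab12 at -1.62, the kinase Stk11 at -1.38 and Smg9, a factor of nonsense-mediated decay, at -1.27. Of the 20 genes 10 were also called between the ages in BL10. Without both doubted arrays (replicate 2 of BL10 at 3 weeks, replicate 3 of mdx at 2 weeks) 0 of the 20 had an adjusted p under 0.05 (limma), and their adjusted p lay between 0.0643 and 0.0955. That fit kept the 6-week mdx arrays, all 3 of which also read Dmd on the BL10 side. It also kept replicate 1 of mdx at 2 weeks and at 3 weeks, which read almost alike in several list means. The genes outside the naming rule are given because they passed this test.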

How the results depend on the processing

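The counts of called genes depended on the setting. With all arrays 114 genes were called, 59 higher and 55 lower. Values as deposited gave 20 (12 and 8), median centring 18 (12 and 6), no filter 38 (18 and 20), no intensity trend 15 (8 and 7) and array weights 875 (394 and 481). Testing every probe set gave 570 calls, and averaging the probe sets per gene gave 87 (54 and 33). A call that also asks for a difference of 1 on the log2 scale left 60 (31 and 29). The 6 BL10 arrays alone gave 0 (0 and 0; limma, 1571 genes at an unadjusted p under 0.05). Without both doubted arrays (replicate 2 of BL10 at 3 weeks, replicate 3 of mdx at 2 weeks) there were 988 calls, with 113 of the 114 among them.

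Without 1 array at a time the count lay between 0 and 1526, that of genes higher between 0 and 788, and that of genes lower between 0 and 738, with 1817 to 3911 genes at an unadjusted p under 0.05. Arrays outside the comparison, which enter through the shared spread, also moved it. It was 19, 18 and 9 without BL10 5-day replicates 1, 2 and 3, and 20, 0 and 31 without the BL10 6-week ones. It was 16, 6 and 21 without mdx 6-week replicates 1, 2 and 3, 38 and 212 without mdx 2-week replicates 2 and 3, and 315 and 217 without mdx 5-day replicates 2 and 3. For the strain difference of the change the count was 20, between 0 and 1049 without 1 array (0 in 17 of 24), 0 on the deposited scaling and 0 after median centring.

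With the replicate number as a block (replicate block) 263 genes were called (124 and 139), and 59 for the strain difference. Deviations of same-numbered samples correlated at 0.36, 0.28 and 0.07, and those of differently numbered samples at -0.41 to 0.17. Each 2-week array correlated best with the 3-week array of its number. However, 3-week replicate 3 correlated better with 2-week replicate 2 (0.17). The labels give only the number, and whether it marks a shared factor was not tested. Over the alternatives, the 35 called genes of the naming rule kept direction and call 711 times, kept direction alone 577 times and reversed 0 times. Where the ages do not overlap, leaving out an array cannot reverse a gene, so most of these settings could not show a reversal.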
